A study of Homo sapiens with 31 samples.

Results

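The enzymes that remove superoxide and peroxides, 10 by name, were followed in the Caco-2 line. Caco-2 came from a human colorectal adenocarcinoma and forms an enterocyte-like sheet once confluent. They were CAT, SOD1, SOD2, GPX1, GPX2, GPX3, GPX4, PRDX1, PRDX4 and PRDX6. A member was taken as measured where the annotation gave a row of the array to that gene alone, and the row with the highest mean over the 31 arrays stood for it. This found 9 of the 10 named enzymes among 22395 genes. SOD2, the mitochondrial manganese superoxide dismutase, had 0 rows of its own and 2 rows that named it with another gene, so it was not analysed here.

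The study asked how cells grown under flow in a gut-on-chip and cells grown without flow on Transwell inserts respond to metal oxide nanomaterials. After 21 days of culture the cells were exposed for 6 h. The chip groups received 100 µg/mL titanium dioxide (TiO2), its metal-free control medium, 80 µg/mL zinc oxide (ZnO) or its own control medium, with 4 arrays each. The Transwell groups received 50 µg/mL TiO2 (3 arrays), TiO2-control medium, 10 µg/mL ZnO or ZnO-control medium (4 arrays each). Concentrations in the medium therefore differed between the systems. The labels state that they were modelled to deposit equal doses. All groups were the same line at passage 29 to 45, with flow during culture in the chip alone and with the flow stopped during exposure. The labels do not say which arrays came from separate cultures, so p-values measure the spread between these arrays, which may be partly technical.

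Superoxide dismutases turn superoxide into hydrogen peroxide and oxygen. Catalase splits hydrogen peroxide inside peroxisomes, and glutathione peroxidases reduce it with glutathione, most of them through a selenocysteine at the active site. Peroxiredoxins use a reactive cysteine, which thioredoxin or glutathione systems recharge. Absorbing gut cells carry all of these families, and GPX2 is the glutathione peroxidase typical of the intestinal epithelium.

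Promoter sequence is shown for the 3 enzymes that separated the culture systems in several media and had a RefSeq promoter entry (GPX1, CAT and GPX3), and for GPX2, whose replicates spread most. Of the 10 named enzymes 7 had an entry. Each run gives the 250 bases before the annotated start, 5′ to 3′ on the gene's strand, in GRCh38.p14. Capitals mark letters that match, on either strand, the antioxidant response element core TGACNNNGC, the GC box GGGCGG or the CCAAT box. The promoters lie at chr3:49358354-49358603 on the minus strand for GPX1, at chr11:34438684-34438933 on the plus strand for CAT, at chr5:151020341-151020590 on the plus strand for GPX3 and at chr14:64942746-64942995 on the minus strand for GPX2.
GPX1 promoter: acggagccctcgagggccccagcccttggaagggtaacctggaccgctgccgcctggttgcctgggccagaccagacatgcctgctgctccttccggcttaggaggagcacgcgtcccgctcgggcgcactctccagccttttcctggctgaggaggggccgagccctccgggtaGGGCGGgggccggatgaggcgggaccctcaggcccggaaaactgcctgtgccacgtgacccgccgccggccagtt
CAT promoter: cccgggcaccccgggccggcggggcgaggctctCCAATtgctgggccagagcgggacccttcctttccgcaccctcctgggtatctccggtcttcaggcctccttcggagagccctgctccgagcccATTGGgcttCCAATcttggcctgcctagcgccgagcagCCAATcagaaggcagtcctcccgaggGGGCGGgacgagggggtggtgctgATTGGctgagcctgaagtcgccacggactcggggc
GPX3 promoter: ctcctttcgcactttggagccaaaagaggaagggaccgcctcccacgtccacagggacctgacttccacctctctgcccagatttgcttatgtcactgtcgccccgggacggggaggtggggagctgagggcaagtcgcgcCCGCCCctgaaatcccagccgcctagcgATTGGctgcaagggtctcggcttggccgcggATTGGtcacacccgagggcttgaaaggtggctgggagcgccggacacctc
GPX2 promoter: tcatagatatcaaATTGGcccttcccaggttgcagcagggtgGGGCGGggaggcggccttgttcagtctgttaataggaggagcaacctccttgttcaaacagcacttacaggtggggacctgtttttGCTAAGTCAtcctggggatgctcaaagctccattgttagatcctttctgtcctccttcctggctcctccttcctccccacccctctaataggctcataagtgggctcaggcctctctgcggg
The CAT window held 5 CCAAT boxes and 1 GC box, and GPX3 held 2 CCAAT boxes and 1 GC box. GPX1 held 1 GC box, at position -75. GPX2 alone of these 4 held an antioxidant response element core, GCTAAGTCA at position -122, besides 1 GC box and 1 CCAAT box. Among 35116 human promoters cut in the same way, 10.9% held the antioxidant response element core, 42.6% the GC box and 32.0% the CCAAT box. A match describes the letters and was not tested as a binding site.

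Values were log2 intensities after robust multi-array averaging (RMA), and array medians lay between 3.243 and 3.333. These medians were taken over all 53617 rows, of which 27904 named no gene. Over the 22395 genes alone, the median of an array was higher, at 4.235 to 4.397. All 9 enzymes lay above the array median on 31 of 31 arrays. The number of arrays limits the precision of each value. Brightness depends on the probes, so levels are compared between groups and not between enzymes. RefSeq lists pseudogenes named after SOD1 (3), GPX1 (2), PRDX4 (2) and PRDX1 (1), and their transcripts could share probes with the parent gene. Of 12 epithelial markers 11 were measured and lay above the array median on every array, with mean levels of 8.16 to 8.86 in the chip and 8.67 to 8.83 on Transwell. In the order after TiO2, TiO2-control, after ZnO and ZnO-control, 2, 4, 1 and 2 of these 11 were called higher in the chip. Called lower were 3, 3, 4 and 4 (adjusted p below 0.05). Of all genes 7.92%, 9.42%, 13.3% and 12.3% were higher and 10.2%, 13.5%, 16.5% and 14.9% lower. The list medians were 0.09, 0.08, -0.03 and 0. Within that list SI (sucrase-isomaltase), VIL1 (villin) and CDX2 (an intestinal transcription factor) were lower in the chip in all 4 media. Their log2 differences were -4.41 to -2.25, -0.85 to -0.66 and -1.07 to -0.41. KRT18, a keratin, was higher in all 4 (0.41 to 0.65). The CDX2 call in ZnO-control medium was lost in 4 of 15 alternatives, among them without chip ZnO-control replicate 2 (-0.25, adjusted p = 0.192). Of 17 stromal, endothelial and immune markers 14 were measured, with mean levels of 3.95 to 4.54 in the chip and 4.01 to 4.33 on Transwell, and in each group 5 to 7 of them lay above the array median on every array and 5 to 7 below it on every array. Of those below it, PTPRC, the pan-leukocyte CD45, averaged 1.48 to 1.68 over the 8 groups. DCN (decorin, of fibroblasts) averaged 1.57 to 1.74 and MS4A1 (CD20, of B cells) 1.41 to 1.88. Of the 14, 3, 2, 1 and 2 were higher in the chip in the order after TiO2, TiO2-control, after ZnO and ZnO-control. Lower in that order were 1, 1, 1 and 2, beside 7.92% to 13.3% of all genes higher and 10.2% to 16.5% lower. CD68, a lysosomal protein abundant in macrophages, was higher in all 4 media (0.47, 0.46, 0.98 and 0.82), with chip means of 11.35 to 11.43 and Transwell means of 10.38 to 10.96. LYZ, lysozyme, was higher in 3 (1.24, 0.89 and 0.76 after TiO2, in TiO2-control and in ZnO-control medium), and PDGFRB, a receptor of stromal cells, was lower in the same 3 (-0.79, -1.10 and -0.65) with chip means of 3.33 to 3.69, close to the array medians. The CD68 calls were lost in 7 of 15 alternatives after TiO2 and 2 of 16 in TiO2-control medium, and the LYZ calls in 3 of 16 in TiO2-control and 6 of 15 in ZnO-control medium. The part of these marker differences in the results below was not tested. In a bulk sample, fewer cells of a type and less RNA per cell cannot be told apart.

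A pair of chip arrays stood apart. Relative to the mean of the chip TiO2 set, chip TiO2 replicate 4 correlated at -0.283 with its own group and at -0.069 with the TiO2-control group on average, and chip TiO2-control replicate 4 at -0.216 with its own group and -0.105 with the TiO2 group. The other 6 arrays of that set correlated better with their own group. Chip calls in TiO2 media were therefore also made without both arrays. Of the calls of named list genes and markers between chip and Transwell in those media, 2 were lost without them, EEFSEC after TiO2 (-0.47, adjusted p = 0.0832) and SEPHS2 in TiO2-control medium (-0.47, adjusted p = 0.0692), and the enzymes are described below.

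Chip culture against Transwell culture gave the clearest differences among these enzymes. SOD1 and GPX1 were higher in the chip in all 4 media and CAT was lower in all 4, while GPX3 was lower in 3. PRDX4 and GPX4 were higher in 1 medium each, and GPX2, PRDX1 and PRDX6 passed in none. A gene passed where its Benjamini-Hochberg adjusted p from limma, over all 22395 genes of the comparison, was below 0.05. After TiO2 2 of the 9 enzymes were higher and 2 lower, where 18.2% of all genes passed (7.92% higher, 10.2% lower). In TiO2-control medium 3 were higher and 2 lower, beside 22.9% of all genes (9.42% higher, 13.5% lower). After ZnO 3 were higher and 1 lower, beside 29.8% of all genes (13.3% higher, 16.5% lower). In ZnO-control medium 2 were higher and 2 lower, beside 27.2% of all genes (12.3% higher, 14.9% lower). Across all genes 4.18% were higher in all 4 media and 5.5% lower in all 4. The median log2 difference of the 9 enzymes was 0.08, 0.09, 0.13 and 0.16 in the same order of media, beside 0.01, -0.01, 0.02 and -0.01 over all genes. Enzymes of the list thus differed in both directions. Groups did not overlap for 5, 5, 3 and 4 of the 9 enzymes in the same order, beside 27.6%, 23.3%, 29.4% and 28.3% of all genes. Over all media together, all 16 chip arrays lay above all 15 Transwell arrays for 2 enzymes (2.91% of all genes) and below them for 0 (3.8%).

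**Figure D1:**
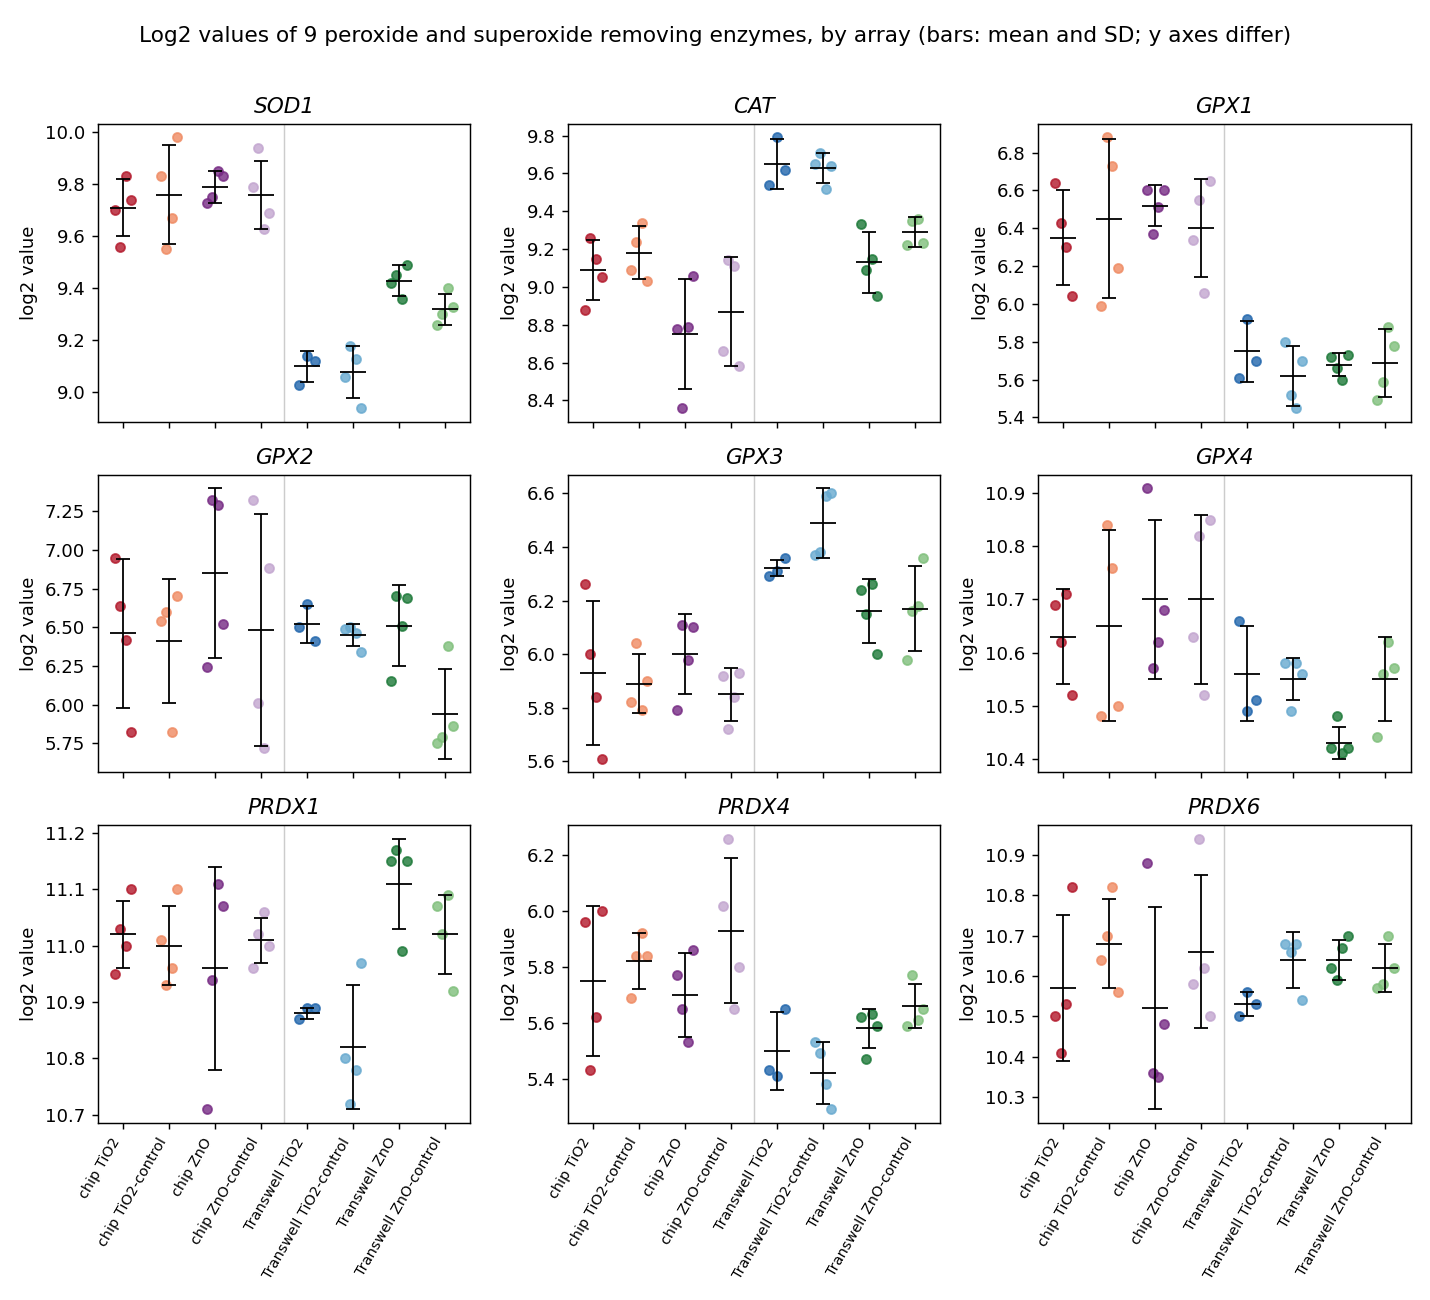
Log2 value of each of the 9 enzymes on every array, in 8 groups with chip groups left of Transwell groups. Points are arrays, bars give the mean and SD, and y axes differ between panels. SOD1 and GPX1 show all 16 chip arrays above all 15 Transwell arrays.

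SOD1, the copper and zinc superoxide dismutase of the cytosol, read 9.70, 9.56, 9.83 and 9.74 in chip TiO2 cultures, against 9.03, 9.14 and 9.12 in Transwell TiO2 cultures. In TiO2-control medium it read 9.83, 9.55, 9.67 and 9.98 in the chip, against 9.06, 9.18, 9.13 and 8.94 on Transwell. Neither pair of groups overlapped. After ZnO the values were 9.73, 9.75, 9.85 and 9.83 in the chip, against 9.42, 9.45, 9.36 and 9.49 on Transwell. In ZnO-control medium they were 9.79, 9.94, 9.63 and 9.69 in the chip, against 9.26, 9.30, 9.40 and 9.33 on Transwell. All 16 chip arrays (9.55 to 9.98, median 9.74) lay above all 15 Transwell arrays (8.94 to 9.49, median 9.26). The log2 difference of SOD1, chip minus Transwell, was 0.61 ± 0.10 (SE) after TiO2 (adjusted p = 6.07e-05), a 1.53-fold level. It was 0.68 ± 0.09 in TiO2-control medium (adjusted p = 3.33e-06). It was 0.36 ± 0.09 after ZnO (adjusted p = 0.00353) and 0.44 ± 0.09 in ZnO-control medium (adjusted p = 0.000596), and whether it depended on the nanomaterial set was not tested. Without both arrays numbered 4 of the chip TiO2 set the differences were 0.60 after TiO2 and 0.61 in TiO2-control medium. All 4 SOD1 calls were kept in every alternative run (15 or 16 for each call).

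Ordered by level, the 4 chip groups of SOD1 came first with means of 9.79 after ZnO, 9.76 in ZnO-control and in TiO2-control medium and 9.71 after TiO2, and neighbours in that order overlapped. A gap of 0.28 with no overlap separated them from Transwell ZnO (9.43 ± 0.06, SD, n = 4) and Transwell ZnO-control (9.32 ± 0.06). The Transwell TiO2 (9.10 ± 0.06, n = 3) and TiO2-control groups (9.08 ± 0.10, n = 4) came last, again with no overlap with the ZnO set above them. Chip means of SOD1 were thus close to one another, and the Transwell means were ordered by nanomaterial set. Between the Transwell control media the SOD1 difference did not pass in the main fit (0.25 ± 0.09, adjusted p = 0.125). There 17.7% of all genes did not overlap.

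CAT, the catalase of peroxisomes, was lower in the chip. It read 8.88, 9.26, 9.15 and 9.05 in chip TiO2 cultures, against 9.54, 9.79 and 9.62 in Transwell TiO2 cultures. In TiO2-control medium it read 9.09, 9.24, 9.34 and 9.03 in the chip, against 9.65, 9.71, 9.52 and 9.64 on Transwell. The chip groups of the TiO2 set lay wholly below their Transwell counterparts. After ZnO the values were 8.78, 8.36, 8.79 and 9.06 in the chip, against 9.33, 9.09, 9.15 and 8.95 on Transwell, and the highest chip array exceeded the lowest Transwell array. In ZnO-control medium they were 8.66, 9.14, 9.11 and 8.58 in the chip, against 9.22, 9.35, 9.36 and 9.23 on Transwell, with no overlap. The log2 difference was -0.57 ± 0.15 after TiO2 (adjusted p = 0.00603), a 1.48-fold lower level in the chip, and -0.46 ± 0.14 in TiO2-control medium (adjusted p = 0.0136). Both held in every alternative, and without both arrays numbered 4 they were -0.56 (adjusted p = 0.0139) and -0.41 (adjusted p = 0.0476).

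For CAT in ZnO media the difference was -0.38 ± 0.14 after ZnO (adjusted p = 0.0331) and -0.42 ± 0.14 in ZnO-control medium (adjusted p = 0.0197). The call after ZnO was lost without chip ZnO replicate 1 (adjusted p = 0.0505) or 2 (log2 difference -0.25, adjusted p = 0.181), without Transwell ZnO replicate 1 (adjusted p = 0.119), 2 (0.0503) or 3 (0.0672), and with only the 2 groups fitted (0.111). That in ZnO-control medium was lost without chip ZnO-control replicate 1 (adjusted p = 0.0804) or 4 (0.101), without Transwell ZnO-control replicate 2 (0.0507) or 3 (0.0522), and with only the 2 groups fitted (0.0670). CAT had its highest group means in Transwell TiO2 (9.65 ± 0.13) and TiO2-control (9.63 ± 0.08), which overlapped each other and did not reach down to Transwell ZnO-control (9.29 ± 0.08). Its lowest mean was in chip ZnO (8.75 ± 0.29), and each pair of neighbours from Transwell ZnO-control downward overlapped. Between the Transwell control media the CAT difference did not pass in the main fit (-0.34 ± 0.14, adjusted p = 0.141). There 17.7% of all genes did not overlap.

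**Figure D2:**
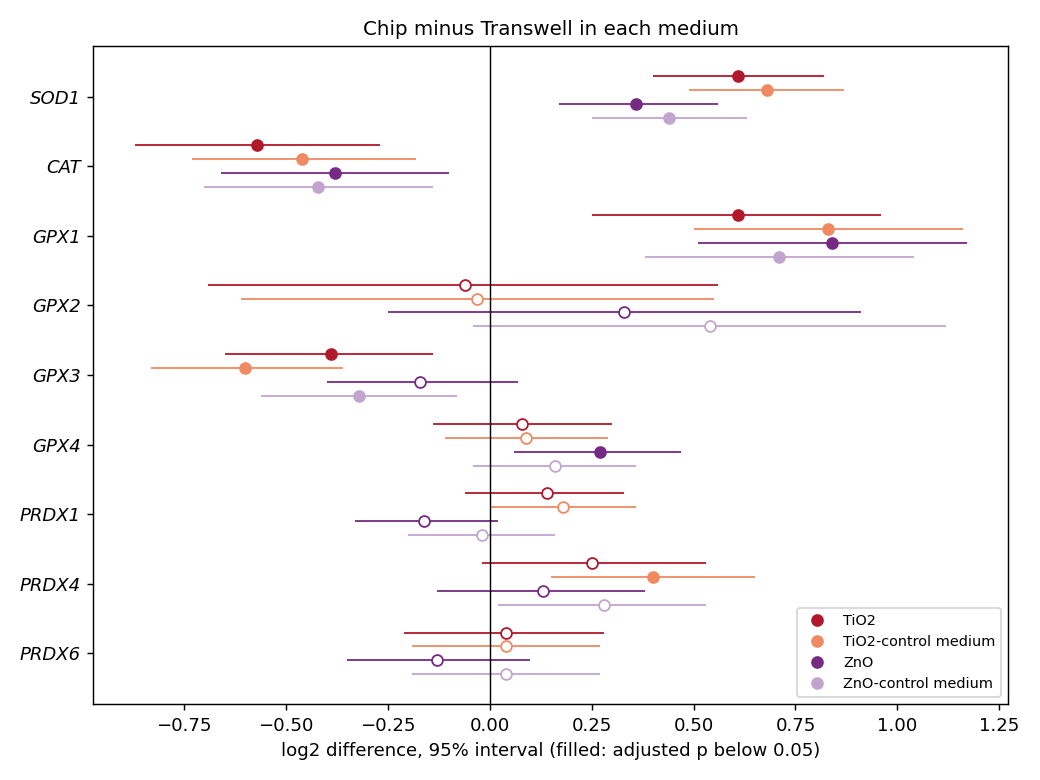
Log2 difference between chip and Transwell (x axis, chip minus Transwell) for each enzyme in the 4 media, with 95% intervals from limma; filled points passed an adjusted p below 0.05. SOD1 and GPX1 lie to the right and CAT to the left in all 4 media, and the intervals of GPX2 are the widest.

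GPX1, the widespread glutathione peroxidase of the cytosol, reached the largest difference of the list. It read 6.64, 6.43, 6.30 and 6.04 in chip TiO2 cultures, against 5.61, 5.92 and 5.70 in Transwell TiO2 cultures. In TiO2-control medium it read 5.99, 6.88, 6.73 and 6.19 in the chip, against 5.80, 5.52, 5.45 and 5.70 on Transwell. Chip arrays ranged widely here and still stayed above the Transwell arrays. After ZnO the values were 6.60, 6.37, 6.51 and 6.60 in the chip, against 5.72, 5.66, 5.60 and 5.73 on Transwell. In ZnO-control medium they were 6.34, 6.55, 6.06 and 6.65 in the chip, against 5.49, 5.59, 5.88 and 5.78 on Transwell. As for SOD1, all 16 chip arrays (5.99 to 6.88) lay above all 15 Transwell arrays (5.45 to 5.92). The log2 difference of GPX1 was 0.61 ± 0.17 after TiO2 (adjusted p = 0.0126), 0.83 ± 0.16 in TiO2-control medium (adjusted p = 0.000269), 0.84 ± 0.16 after ZnO (adjusted p = 0.000132), a 1.79-fold level, and 0.71 ± 0.16 in ZnO-control medium (adjusted p = 0.00101). The call after TiO2 was lost without chip TiO2 replicate 1 (0.51, adjusted p = 0.0526) or Transwell TiO2 replicate 1 (0.54, adjusted p = 0.0692). Without both arrays numbered 4 the difference was 0.71 after TiO2 (adjusted p = 0.00457) and 0.91 in TiO2-control medium (adjusted p = 0.000141). Chip group means of 6.35 to 6.52 overlapped one another, as did Transwell means of 5.62 to 5.75, and a gap of 0.61 separated both sets.

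GPX3, the secreted glutathione peroxidase of plasma, moved the other way. It read 6.26, 6.00, 5.84 and 5.61 in chip TiO2 cultures, against 6.29, 6.31 and 6.36 in Transwell TiO2 cultures. In TiO2-control medium it read 5.82, 6.04, 5.79 and 5.90 in the chip, against 6.37, 6.38, 6.59 and 6.60 on Transwell. Neither pair overlapped, although chip TiO2 replicate 1 lay just below the lowest Transwell array. After ZnO the values were 5.79, 6.11, 5.98 and 6.10 in the chip, against 6.24, 6.15, 6.26 and 6.00 on Transwell, which overlapped. In ZnO-control medium they were 5.92, 5.72, 5.84 and 5.93 in the chip, against 5.98, 6.16, 6.18 and 6.36 on Transwell, with no overlap. The log2 difference of GPX3 in TiO2-control medium was -0.60 ± 0.12 (adjusted p = 0.000286), a 1.51-fold lower level in the chip. It was -0.39 ± 0.13 after TiO2 (adjusted p = 0.0271), -0.32 ± 0.12 in ZnO-control medium (adjusted p = 0.0382) and -0.17 ± 0.12 after ZnO (95% interval -0.40 to 0.07, adjusted p = 0.327).

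The GPX3 call in TiO2-control medium held in every fit of this row (-0.60 without both arrays numbered 4), and the other GPX3 calls were less stable. After TiO2 it was lost without chip TiO2 replicate 3 (adjusted p = 0.0697) or 4 (0.114), without any 1 of the 3 Transwell TiO2 arrays (0.0619, 0.0701 and 0.0901), without both arrays numbered 4 (-0.29, adjusted p = 0.117) and with only the 2 groups fitted (0.153). In ZnO-control medium it was lost without chip ZnO-control replicate 2 (0.115) or 3 (0.0686), without Transwell ZnO-control replicate 2 (0.0660), 3 (0.0731) or 4 (-0.26, adjusted p = 0.143), and with only the 2 groups fitted (0.0713). A dimmer row also named GPX3 alone, with group means of 3.03 to 3.60 close to the array medians, and it gave 0.01 in TiO2-control medium (adjusted p = 0.993) and -0.53 after TiO2 (adjusted p = 0.41). The GPX3 result therefore rests on the brighter row.

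GPX4 reduces lipid hydroperoxides within membranes. Its values after ZnO were 10.91, 10.57, 10.62 and 10.68 in the chip, against 10.42, 10.48, 10.41 and 10.42 on Transwell, and the groups did not overlap. The log2 difference after ZnO was 0.27 ± 0.10 (adjusted p = 0.0397), a 1.20-fold level. That call was lost without chip ZnO replicate 1 (0.19, adjusted p = 0.168) or 4 (0.0602), without any 1 of the 4 Transwell ZnO arrays (0.0544 to 0.0807) and with only the 2 groups fitted (0.120). In the other media GPX4 differed by 0.08 after TiO2 (95% interval -0.14 to 0.30), 0.09 in TiO2-control medium (-0.11 to 0.29) and 0.16 in ZnO-control medium (-0.04 to 0.36), and none of these passed. Without both arrays numbered 4 it was 0.12 after TiO2 and 0.14 in TiO2-control medium. Group means of GPX4 spanned 0.27, with Transwell ZnO (10.43 ± 0.03, SD, n = 4) the lowest.

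GPX2 varied most between replicate chips. It read 6.95, 6.64, 6.42 and 5.82 in chip TiO2 cultures, against 6.50, 6.65 and 6.41 in Transwell TiO2 cultures. In TiO2-control medium it read 6.54, 6.60, 5.82 and 6.70 in the chip, against 6.49, 6.50, 6.46 and 6.34 on Transwell. In both media the chip arrays bracketed the Transwell arrays. After ZnO the values were 6.24, 7.32, 7.29 and 6.52 in the chip, against 6.15, 6.70, 6.51 and 6.69 on Transwell. In ZnO-control medium they were 7.32, 6.01, 5.72 and 6.88 in the chip, against 5.75, 5.79, 6.38 and 5.86 on Transwell. Chip ZnO-control replicates thus differed from one another by more than any 2 group means did. The log2 differences were -0.06 ± 0.31 after TiO2, -0.03 ± 0.28 in TiO2-control medium, 0.33 ± 0.28 after ZnO and 0.54 ± 0.28 in ZnO-control medium (adjusted p = 0.181), and none passed. The 95% intervals were -0.69 to 0.56 after TiO2 and -0.61 to 0.55 in TiO2-control medium, and neither holds the GPX1 difference of that medium. They were -0.25 to 0.91 after ZnO and -0.04 to 1.12 in ZnO-control medium, and both hold it. The GPX1 difference has an interval of its own (0.25 to 0.96 after TiO2), and GPX2 was not tested against GPX1. GPX2 without both arrays numbered 4 gave 0.15 after TiO2 and -0.12 in TiO2-control medium. In ZnO-control medium GPX2 passed without chip replicate 3 (0.79, adjusted p = 0.0375).

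PRDX4, the peroxiredoxin of the endoplasmic reticulum, was higher in the chip in TiO2-control medium. There it read 5.69, 5.84, 5.92 and 5.84 in the chip, against 5.53, 5.49, 5.38 and 5.29 on Transwell. The groups did not overlap, and the log2 difference was 0.40 ± 0.12 (adjusted p = 0.0178), a 1.32-fold level. That call was lost without chip TiO2-control replicate 3 (0.37, adjusted p = 0.0528) or Transwell TiO2-control replicate 4 (0.36, adjusted p = 0.0620). Without both arrays numbered 4 it was 0.39 (adjusted p = 0.0279), and the difference after TiO2 was 0.17 (adjusted p = 0.472). The other differences of PRDX4 were 0.25 after TiO2 (95% interval -0.02 to 0.53), 0.13 after ZnO (-0.13 to 0.38) and 0.28 in ZnO-control medium (0.02 to 0.53, adjusted p = 0.103). That in ZnO-control medium passed without chip replicate 3 (adjusted p = 0.0302). Chip arrays of PRDX4 ran from 5.43 to 6.26 and Transwell arrays from 5.29 to 5.77.

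PRDX1, the main cytosolic peroxiredoxin of many cells, passed in none of the 4 media. Its differences were 0.14 ± 0.09 after TiO2, 0.18 ± 0.09 in TiO2-control medium (adjusted p = 0.148), -0.16 ± 0.09 after ZnO and -0.02 ± 0.09 in ZnO-control medium. Without both arrays numbered 4 they were 0.11 after TiO2 and 0.15 in TiO2-control medium. With each array centred on its median over genes, PRDX1 passed in TiO2-control medium (0.26, adjusted p = 0.0279). PRDX6, a peroxiredoxin that also has phospholipase activity, differed by 0.04 ± 0.12 after TiO2, 0.04 ± 0.11 in TiO2-control medium, -0.13 ± 0.11 after ZnO and 0.04 ± 0.11 in ZnO-control medium. PRDX6 without both arrays numbered 4 gave -0.05 after TiO2 and 0.08 in TiO2-control medium. The 95% intervals of PRDX6 lay within -0.35 to 0.28 and those of PRDX1 within -0.33 to 0.36. Group means of PRDX6 spanned 0.16, the narrowest of the list, between 10.52 in chip ZnO and 10.68 in chip TiO2-control.

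Exposure to either nanomaterial changed none of the 9 enzymes past the threshold. For ZnO against its control in the chip, where 61 genes passed (0.272%), 0 of 9 enzymes did. For ZnO on Transwell, TiO2 in the chip and TiO2 on Transwell 0 genes passed with limma. An unadjusted p below 0.05 was reached by 835, 1997 and 591 of 22395 genes, and by 0 of 9 enzymes each time. For ZnO in the chip 2109 of 22395 genes and again 0 of 9 enzymes had such a p. At these shares, 0 of 9 does not set the enzymes apart from other genes. Exposed and control groups overlapped for all 9 enzymes with ZnO in the chip, ZnO on Transwell and TiO2 in the chip, where 3.59%, 3.97% and 3.34% of all genes did not overlap, and for 8 with TiO2 on Transwell (5.53%). The exception there was GPX3 (-0.16 ± 0.13, adjusted p = 1). For TiO2 in the chip without both arrays numbered 4, 73 genes and again 0 enzymes passed. The nearest to the threshold were GPX2 and PRDX4. GPX2 read 6.15, 6.70, 6.51 and 6.69 on Transwell after ZnO, against 5.75, 5.79, 6.38 and 5.86 in its control. Only replicate 3 of the control lay within the range of the exposed arrays, and the log2 difference was 0.57 ± 0.28 (unadjusted p = 0.055, adjusted p = 1). In the chip GPX2 differed by 0.36 ± 0.28 after ZnO (95% interval -0.22 to 0.94). PRDX4 read 5.77, 5.65, 5.53 and 5.86 in the chip after ZnO, against 6.02, 6.26, 5.65 and 5.80 in its control, a difference of -0.23 ± 0.12 (unadjusted p = 0.0749, adjusted p = 0.589), with overlap.

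**Figure D3:**
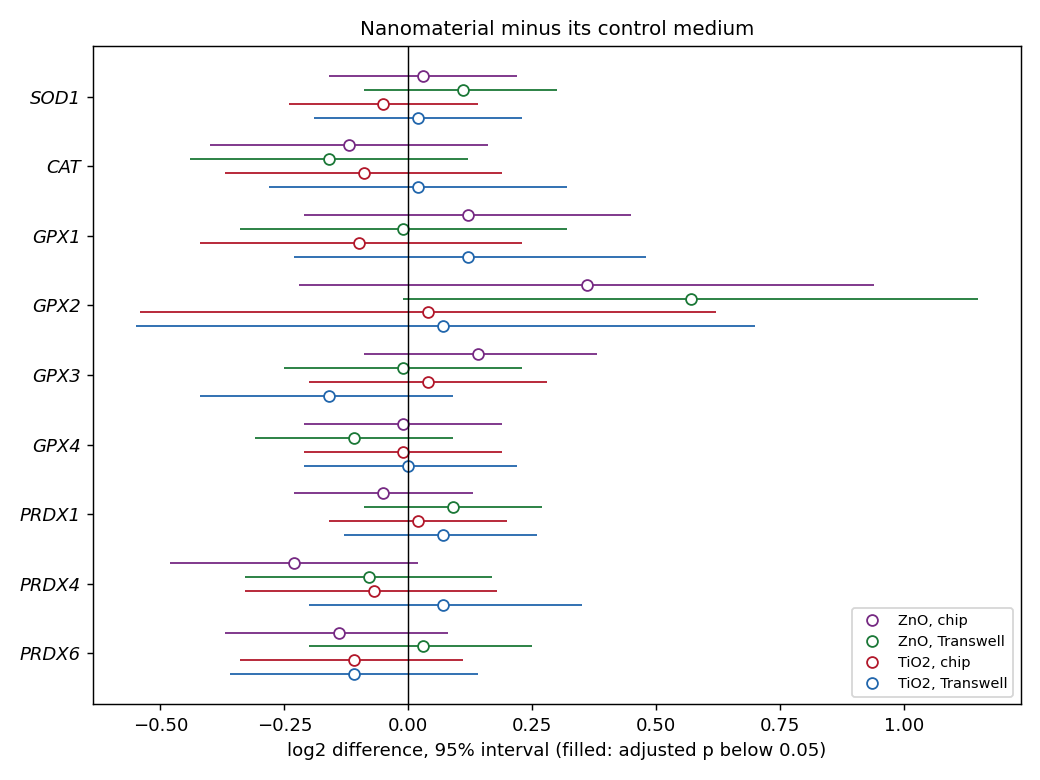
Log2 difference between nanomaterial and its control medium (x axis, exposed minus control) for each enzyme in both culture systems, with 95% intervals from limma. All points are open because none passed, and every interval includes 0.

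The intervals give the sizes that these arrays leave possible. Leaving GPX2 aside, the 95% intervals of the other 8 enzymes over all 4 exposures lay between -0.48 (PRDX4, ZnO in the chip) and 0.48 (GPX1, TiO2 on Transwell). Those of GPX2 lay between -0.55 and 1.15. For SOD1 the exposure differences were 0.03 ± 0.09 for ZnO in the chip, 0.11 ± 0.09 for ZnO on Transwell, -0.05 ± 0.09 for TiO2 in the chip and 0.02 ± 0.10 for TiO2 on Transwell. For CAT they were -0.12 ± 0.14, -0.16 ± 0.14, -0.09 ± 0.14 and 0.02 ± 0.15 in the same order. Responses did not differ detectably between the systems either. The difference of the ZnO responses, chip minus Transwell, passed for 0 of 9 enzymes (smallest adjusted p = 0.946) and 1 of all genes (0.00447%), and that of the TiO2 responses for 0 of 9 enzymes (smallest adjusted p = 0.947) and 0 genes, at different concentrations in the medium. At an unadjusted p below 0.05 these tests had 1345 and 1215 of 22395 genes and 0 of 9 enzymes each. Again, 0 of 9 does not set the enzymes apart from other genes.

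Both control media were also set against each other, since each nanomaterial set had its own. On Transwell 1486 genes (6.64%) differed between ZnO-control and TiO2-control medium, and 0 of 9 enzymes passed. An unadjusted p below 0.05 was found for 4 of the 9 enzymes, beside 4315 of all 22395 genes. SOD1 differed by 0.25 ± 0.09 (adjusted p = 0.125), PRDX1 by 0.21 ± 0.09 (adjusted p = 0.176), CAT by -0.34 ± 0.14 (adjusted p = 0.141) and GPX3 by -0.31 ± 0.12 (adjusted p = 0.108), ZnO-control minus TiO2-control. For SOD1, CAT, GPX3 and PRDX4 (0.23 ± 0.12, adjusted p = 0.313) these control groups did not overlap, as for 17.7% of all genes. SOD1 and CAT passed with array weights (adjusted p = 0.0298 and 0.0452), and GPX3 passed among brighter genes only (adjusted p = 0.0498). With only the 2 control groups fitted CAT passed as well (-0.34, adjusted p = 0.0422). GPX2 differed by -0.50 ± 0.28 (95% interval -1.08 to 0.08). In the chip 13 genes (0.058%) and 0 of 9 enzymes differed between the control media, and all 9 overlapped (3.2% of all genes did not), with CAT at -0.30 ± 0.14 (adjusted p = 0.449). The medium cannot be told apart from whatever else separated the ZnO and TiO2 sets.

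Replicates of the chip spread more than those of Transwell for each of the 9 enzymes. The pooled within-group SD was 0.557 in the chip and 0.213 on Transwell for GPX2, a ratio of 2.62. PRDX6 had the highest ratio, 3.45 (0.190 in the chip and 0.055 on Transwell), and PRDX1 the lowest, 1.28. The ratio was 2.35 for GPX4, 2.11 for PRDX4, 2.02 for CAT, 1.95 for GPX1, 1.78 for SOD1 and 1.39 for GPX3. Over all genes the median ratio was 1.3, and 74.3% of genes had a ratio above 1. The fit used 1 spread for both systems.

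**Figure D4:**
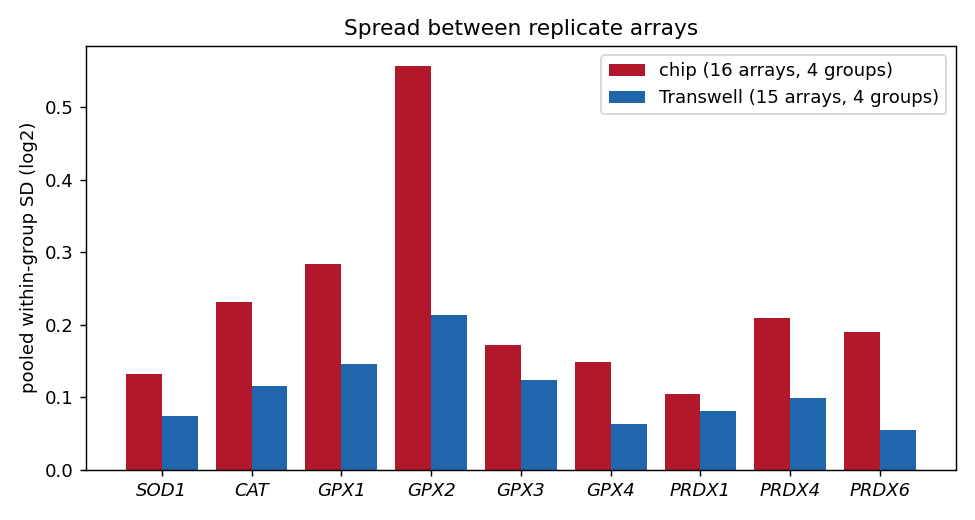
Pooled within-group standard deviation of log2 values (y axis) for each enzyme, over the 4 chip groups (16 arrays) and the 4 Transwell groups (15 arrays). The chip bar is the taller for each enzyme, and GPX2 in the chip is the tallest at 0.557.

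Other enzymes of the same families, those that supply thioredoxin and glutathione, producers of superoxide and peroxide, selenium supply and regulators were counted from lists chosen with earlier results of these data known. Each count stands against the share of all genes that passed between chip and Transwell, which was 7.92%, 9.42%, 13.3% and 12.3% higher and 10.2%, 13.5%, 16.5% and 14.9% lower in the order after TiO2, TiO2-control, after ZnO and ZnO-control. Of 9 related peroxiredoxins, glutathione peroxidases, superoxide dismutases and the copper chaperone, 8 were measured, and 1 was higher in the chip in each medium and 2, 3, 2 and 1 were lower in that order, where 18.2%, 22.9%, 29.8% and 27.2% of all genes passed in either direction. The list medians were -0.12, -0.17, 0.02 and -0.07, beside 0.01, -0.01, 0.02 and -0.01 over all genes. GPX8, a peroxidase of the endoplasmic reticulum, was higher by 1.63 ± 0.35 after TiO2 (adjusted p = 0.00118), 2.08 ± 0.33 in TiO2-control medium (adjusted p = 1.99e-05), 1.89 ± 0.33 after ZnO (adjusted p = 3.61e-05) and 1.86 ± 0.33 in ZnO-control medium (adjusted p = 5.17e-05). On Transwell GPX8 averaged 2.93 to 3.35, about the array medians, so its size there is uncertain. PRDX2, a further cytosolic peroxiredoxin, was lower in the chip in all 4 media (-0.48, -0.42, -0.53 and -0.31). The PRDX2 call in ZnO-control medium was lost without Transwell ZnO-control replicate 3 (-0.27, adjusted p = 0.0576). Among the member peroxiredoxins PRDX4 had its call in the other direction. SOD3, the secreted superoxide dismutase, averaged 4.48 in chip and 5.48 in Transwell TiO2 cultures, a 1.99-fold lower level in the chip (adjusted p = 0.000634), and was lower in TiO2-control medium too (-0.74). It did not pass in ZnO media (-0.08 and -0.47). On Transwell SOD3 was lower in ZnO-control than in TiO2-control medium (-0.65, adjusted p = 0.0333), a call lost in 7 of 15 alternatives.

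The list of thioredoxin and glutathione supply had 17 genes, of which 16 were measured. It also held sestrins and the thioredoxin inhibitor TXNIP, so its counts do not measure recharging capacity. In the order after TiO2, TiO2-control, after ZnO and ZnO-control, 8, 9, 8 and 8 were higher in the chip. Lower in that order were 2, 3, 4 and 3, beside 7.92% to 13.3% of all genes higher and 10.2% to 16.5% lower. The list medians were 0.24, 0.43, 0.38 and 0.47, beside 0.01, -0.01, 0.02 and -0.01 over all genes. TXNRD1, the thioredoxin reductase of the cytosol, was higher in the chip by 1.07 ± 0.10, 1.03 ± 0.10, 1.54 ± 0.10 and 1.22 ± 0.10 in that order (adjusted p from 1.19e-12 to 1.67e-08). SRXN1, which repairs overoxidised peroxiredoxins, was higher by 0.59 to 1.13, and GCLM, the modifier subunit of the first enzyme of glutathione synthesis, by 0.84 to 1.18. SLC7A11, the cystine importer, was higher by 0.70 to 2.01, and TXNIP, which binds and inhibits thioredoxin, by 0.95 to 1.54. SESN3, a sestrin, was lower (-1.76 to -1.04). The SLC7A11 call in ZnO-control medium was lost in 5 of 15 alternatives (adjusted p up to 0.135). On Transwell 4 of the 16 were higher in ZnO-control than in TiO2-control medium and 3 lower, beside 6.64% of all genes in either direction. SLC7A11 (1.14, adjusted p = 0.00417) and SRXN1 (0.63, adjusted p = 0.0132) were higher there, and TXNIP (-0.41, adjusted p = 0.0396) lower. The SRXN1 call was lost in 2 of 15 alternatives and the TXNIP call in 7 of 15. After ZnO in the chip 2 of the 16 passed, both higher, beside 61 of all genes (0.272%). Among them was TXNRD1, at 8.13 ± 0.14 after ZnO and 7.67 ± 0.09 in its control (SD, n = 4 each). Its difference was 0.46 ± 0.10 (adjusted p = 0.0353), and the other did not meet the naming rule. That TXNRD1 call was kept in 6 of 15 alternatives, and was lost with only the 2 groups fitted (adjusted p = 0.673). PRDX1, which uses thioredoxin, had no call in that comparison, and neither had PRDX4.

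**Figure D5:**
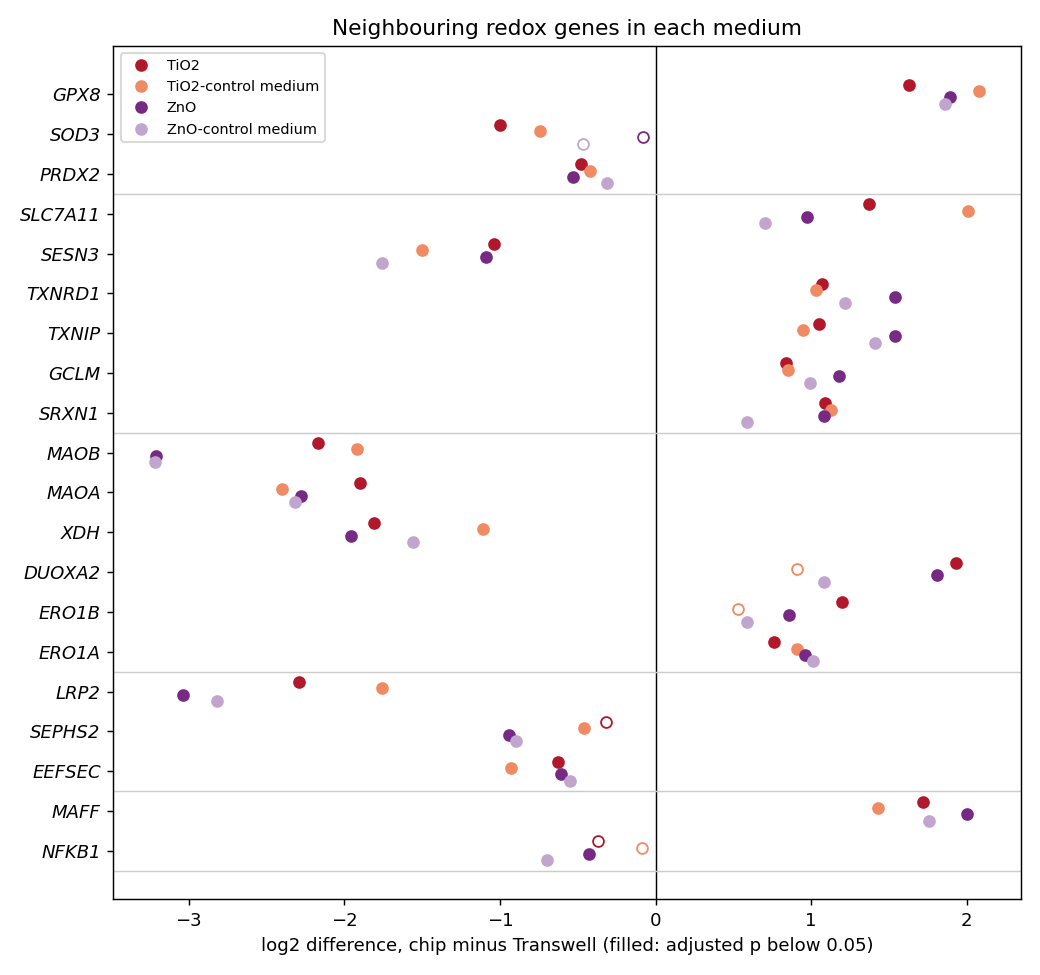
Log2 difference between chip and Transwell (x axis, chip minus Transwell) in the 4 media for named genes of the 5 lists, separated by grey lines; filled points passed an adjusted p below 0.05. GPX8, SLC7A11, TXNRD1, TXNIP, GCLM, SRXN1 and MAFF lie to the right in all 4 media, and MAOB, MAOA, XDH, LRP2 and SESN3 to the left.

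Producers were mixed, with 19 of 23 listed genes measured. After TiO2 3 were higher in the chip and 5 lower, in TiO2-control medium 1 and 6, after ZnO 5 and 5, and in ZnO-control medium 4 and 4, where 18.2%, 22.9%, 29.8% and 27.2% of all genes passed in either direction. The list medians were 0.03, -0.10, 0.12 and -0.15. The monoamine oxidases, which release hydrogen peroxide at the outer mitochondrial membrane, were lower in the chip in all 4 media, with log2 differences of -3.22 to -1.92 for MAOB and -2.40 to -1.90 for MAOA. XDH, the xanthine oxidoreductase, was lower too (-1.96 to -1.11). ERO1A, an oxidase of the endoplasmic reticulum that releases hydrogen peroxide as it forms disulfides, was higher by 0.76 to 1.01. Its relative ERO1B was higher in 3 media (1.20, 0.86 and 0.59), and so was DUOXA2, the maturation factor of a dual oxidase (1.93, 1.81 and 1.08). Transwell means were 2.49 to 2.93 for DUOXA2, below the array medians, and 3.25 after TiO2 and 3.62 in ZnO-control medium for ERO1B, so the sizes of both are uncertain. In ZnO-control medium the ERO1B call was lost in 4 of 14 alternatives and the DUOXA2 call in 3 of 14.

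Selenium supply was read because GPX1, GPX2, GPX3 and GPX4 are selenoproteins in humans. Of 10 listed genes 9 were measured, and 2 were lower in the chip after TiO2, 3 in TiO2-control medium and 4 in each ZnO medium, with 1 higher in each ZnO medium, where 10.2%, 13.5%, 16.5% and 14.9% of all genes were lower. The list medians were -0.10, -0.33, -0.13 and -0.42. LRP2, the receptor that takes up selenoprotein P in kidney of the mouse, was lower in all 4 media (-3.04 to -1.76). EEFSEC, the elongation factor for selenocysteine, was lower in all 4 (-0.93 to -0.55), and SEPHS2, which makes the selenium donor, in 3 (-0.94 to -0.46). The EEFSEC call was lost in 5 of 15 alternatives after TiO2, 2 after ZnO and 3 in ZnO-control medium, and the SEPHS2 call in TiO2-control medium in 10 of 16. Of 13 regulators 11 were measured, and 2, 2, 4 and 2 were higher in the chip and 0, 0, 2 and 1 lower in the same order of media, beside 18.2%, 22.9%, 29.8% and 27.2% of all genes in either direction. The list medians were 0.01, 0.18, 0.26 and 0.17. MAFF, a small MAF partner of NRF2, was higher in all 4 media by 1.43 to 2.00. NFKB1, a subunit of NF-kB, was lower after ZnO (-0.43) and in ZnO-control medium (-0.70). On Transwell NFKB1 was higher in ZnO-control than in TiO2-control medium (0.54, adjusted p = 0.00829), a call lost in 2 of 15 alternatives. Direction within the selenoprotein members themselves was mixed, with GPX1 higher and GPX3 lower in the chip.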

How the data were processed

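Total RNA of 31 Caco-2 samples was hybridised to Affymetrix whole-transcript arrays. The log2 values were deposited by the authors after RMA, per the submitters' processing notes. The RMA version, genome build and annotation were not given in the sources used here. This step corrects background, quantile-normalises arrays and summarises probes, so a shift common to all genes would be hidden. Of 53617 rows, 23871 named 1 gene in the platform annotation, 1842 several and 27904 none. Symbols were updated through RefSeq gene identifiers (GRCh38.p14), and the brightest row per gene left 22395 genes. Each of the 31 columns matched 1 sample title, and arrays correlated at 0.9416 to 0.9867.

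Group means of all 8 groups were fitted with limma 3.58.1 in R 4.3.3 (23 residual degrees of freedom, prior 4.77). P-values were adjusted by Benjamini-Hochberg over all genes within each of 12 comparisons, with a threshold of 0.05. The script was tested on simulated data. Alternatives were an intensity trend, array weights, median centring, brighter genes only, all rows with 1 gene, a replicate block, only the groups compared, each array left out, both arrays numbered 4 of the chip TiO2 set left out, and the other GPX3 row.

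The members and lists were chosen with earlier results of these data known. All members were named. Other genes were named if they passed in at least 3 of the 10 comparisons of 2 groups, at most 6 per list by absolute difference. PTPRC, DCN and MS4A1 were named outside this rule, as dim markers. Array depth has no read count, so the number of arrays sets the precision.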

Additional observations from a re-analysis of the deposited data

Results flagged for a closer look

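For 3 combinations of enzyme and group, 1 array lay far from the rest of its group, out of 63 sets of 4 arrays examined, 1 set for each enzyme and group with 4 arrays. Chance alone gives about 1 in 20. GPX2 read 6.38 on Transwell ZnO-control replicate 3, above the next array of that group at 5.86. PRDX1 read 10.99 on Transwell ZnO replicate 3, below the next at 11.15. PRDX6 read 10.54 on Transwell TiO2-control replicate 4, below the next at 10.66. All 3 were Transwell groups.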

How the results depend on the processing

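All 4 SOD1 calls, the GPX1 calls outside TiO2, the CAT calls in both TiO2 media and the GPX3 call in TiO2-control medium (that row only) were kept under every alternative, and 87 of 105 calls of named list genes and markers were too, with 0 reversed. A difference of dim genes is uncertain, signal over background was not used here, and 3 or 4 arrays per group limit all tests. Genes passing for ZnO in the chip numbered 103 with an intensity trend, 25 with array weights, 118 among brighter genes only and 0 with only the groups compared, against 61. For TiO2 in the chip they numbered 2 with a trend, 1 with weights, 2 after centring, 3 among brighter genes and 73 without both arrays numbered 4, against 0. For ZnO on Transwell weights gave 5, against 0. Between control media in the chip weights gave 58, brighter genes 43, all rows 6, only the groups compared 0 and leaving out both arrays numbered 4 gave 388, against 13. On Transwell weights gave 2834, against 1486, with 2 enzymes passing, and brighter genes and only the groups compared gave 1 enzyme each, against 0. The difference of ZnO responses gave 0 genes among brighter genes and with only the groups compared, against 1, and that of TiO2 responses gave 1 without both arrays numbered 4, against 0. With only the groups compared 2 enzymes passed after ZnO and 2 in ZnO-control medium, against 4 each. Leaving out 1 array at a time gave 9 to 144 genes for ZnO in the chip, 0 to 23 for TiO2 in the chip, 0 to 317 and 845 to 1275 between control media in the chip and on Transwell, and 0 to 1 for the ZnO response difference, with 2 to 4 enzymes after TiO2 and after ZnO and 2 to 5 in ZnO-control medium. Signs turned, without a call, for GPX2 after TiO2 (-0.06; 0.06 with weights, 0.15 without both arrays numbered 4, -0.23 to 0.15 leaving out 1 array) and in TiO2-control medium (-0.03; 0.04 centred, -0.12 to 0.17). They also turned for PRDX6 after TiO2 (0.04; -0.01 with weights, -0.05 without both arrays numbered 4, -0.05 to 0.09), in TiO2-control medium (-0.01 to 0.08) and in ZnO-control medium (-0.05 to 0.10), and for PRDX1 in ZnO-control medium (-0.02; 0.00 centred, -0.05 to 0.01). The other GPX3 row gave 0.01 in TiO2-control medium, 0.53 after ZnO and 0.24 between control media on Transwell. The cause of these shifts was not tested, apart from the smaller number of samples or genes that an alternative itself sets.

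Replicate numbers were shared between exposed and control groups, but same-numbered arrays did not deviate together (15 pairs, r from -0.126 to 0.059, 0 above 0.1), so the numbers were not taken to pair samples. With the number as a replicate block the consensus correlation was -0.021, 55 genes passed for ZnO in the chip against 61, and the count of enzymes passing was the same in all 12 comparisons. Every call of the 9 enzymes kept its side of the threshold under that block. The pairs and the blocks joined exposed and control arrays within a system only. Whether same-numbered chip and Transwell arrays belong together was therefore not tested.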
